A study of Mus musculus with 21 samples.

Results

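Chemokines are small secreted proteins that bind receptors with a membrane-spanning, G-protein-coupled fold and steer the movement of leukocytes. They are grouped into C, CC, CXC and CX3C families by the spacing of their first cysteines, and a receptor often binds several ligands. In the prostate, as in other glands, they are made by epithelium, stroma, vessels and the leukocytes themselves, and the androgen-dependent epithelium regresses after removal of the testes. The genes described here are all those whose symbol in the platform annotation starts with Ccl, Cxcl, Ccr or Cxcr followed by a digit, or with Cx3c, Xcl or Xcr. The rule found 79 of the 45259 probes of the bead array, which measure 54 genes, 36 ligands and 18 receptors.

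Prostate RNA came from FVB/N males heterozygous for an androgen reporter, a luciferase gene under a thymidine kinase promoter with androgen response elements (Slp-HRE2); every group carried it, the vehicle groups included. The males were 8 to 12 weeks old, and prostates were collected 24 hours after the last injection. In the genistein experiment, castrated males given genistein, castrated males given vehicle, intact males given genistein and intact males given vehicle had 3 arrays each. Genistein, a soy isoflavone, was injected subcutaneously for 5 days at 300 μg per mouse per day (10 μg per g body weight), and its vehicle was 0.1 ml of mineral oil with 2% dimethylsulfoxide; castrated males were operated on 4 days before the first dose. The estradiol experiment has 4 arrays of intact males that received 17β-estradiol for 4 days at 0.25 μg per mouse per day (10 μg per kg body weight), and 5 from intact males given its vehicle, mineral oil with 0.5% ethanol. Whether an array holds 1 animal or a pool is not in the labels, so the p-values rest on a spread between samples that may be technical.

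Between 42.3% and 47.0% of all probes were detected (detection p under 0.05) on an array. The 6 castrated arrays share 1 chip and the 6 intact arrays of the genistein experiment another, so the effects of castration and of chip cannot be told apart, while both genistein comparisons were made within a chip. Castrated genistein arrays 1 and 3 stand apart from array 2 on the second axis of variation, at -26.82 and -19.69 against 3.25, and the summed seminal vesicle transcripts of the castrated genistein group ran from 1134 to 55600, against 57780 to 102000 in the castrated vehicle group and 81980 to 110200 over the intact arrays of that experiment. In the estradiol experiment, vehicle array 1 stands apart, at -63.64 on the first axis against 9.75 to 22.83 for the other vehicle arrays. Prostate RNA was present in the intact groups. All 7 prostate secretory markers were measured, with summed levels of 117400 to 135000 in the intact arrays of the genistein experiment, and all 7 were lower after castration. Seminal vesicle transcripts were high on the same intact arrays, and whether the samples held other tissue was not tested. Levels below are normalized log2 signals of a gene's brightest detected probe, and changes are differences of group means on that scale. Adjusted p-values are from limma with Benjamini-Hochberg adjustment over all genes tested, and a change is called at an adjusted p under 0.05.

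Ligands were detected far more often than receptors. A probe was detected on all 21 arrays for 20 ligand genes and for 0 receptor genes. A single probe was detected on at least 3 arrays for 33 of the 54 genes, 27 of the 36 ligands and 6 of the 18 receptors. The genistein experiment tested 32 of these genes, and the estradiol experiment 26. The widely detected ligands were the monocyte attractants Ccl7 and Ccl8, the eotaxins Ccl11 and Ccl24, the lymphoid homing ligands Ccl19, Ccl21a, Ccl21c and Cxcl13, and Ccl5, Ccl6, Ccl9, Ccl25, Ccl27a, Cx3cl1, Cxcl9, Cxcl12, Cxcl14, Cxcl15, Cxcl16 and Cxcl17. Of the receptors, Cxcr4, which binds Cxcl12, was detected on 20 arrays and Cx3cr1, which binds Cx3cl1, on 19. Cxcr3, the receptor of Cxcl9 and Cxcl10, was detected on 10 arrays, Ccr7, the receptor of Ccl19 and Ccl21, on 4, and Cxcr6, the receptor of Cxcl16, on 3. The ligands detected on no array were Ccl1, Ccl17, Ccl20, Ccl22, Ccl26, Cxcl2, Cxcl3 and Cxcl11, and the receptors were Ccr1, Ccr1l1, Ccr2, Ccr3, Ccr8, Ccr9, Ccr10, Cxcr1 and Cxcr2. By its most often detected probe Ccr6 was detected on 3 arrays spread over both experiments. Ccl28, Ccr4, Cxcr5 and Xcr1 were detected in this way on 1 or 2, so none of these was tested within an experiment. For the undetected receptors the arrays give only a bound, set by background and probe, so a receptor may be present below it.

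**Figure D1:**
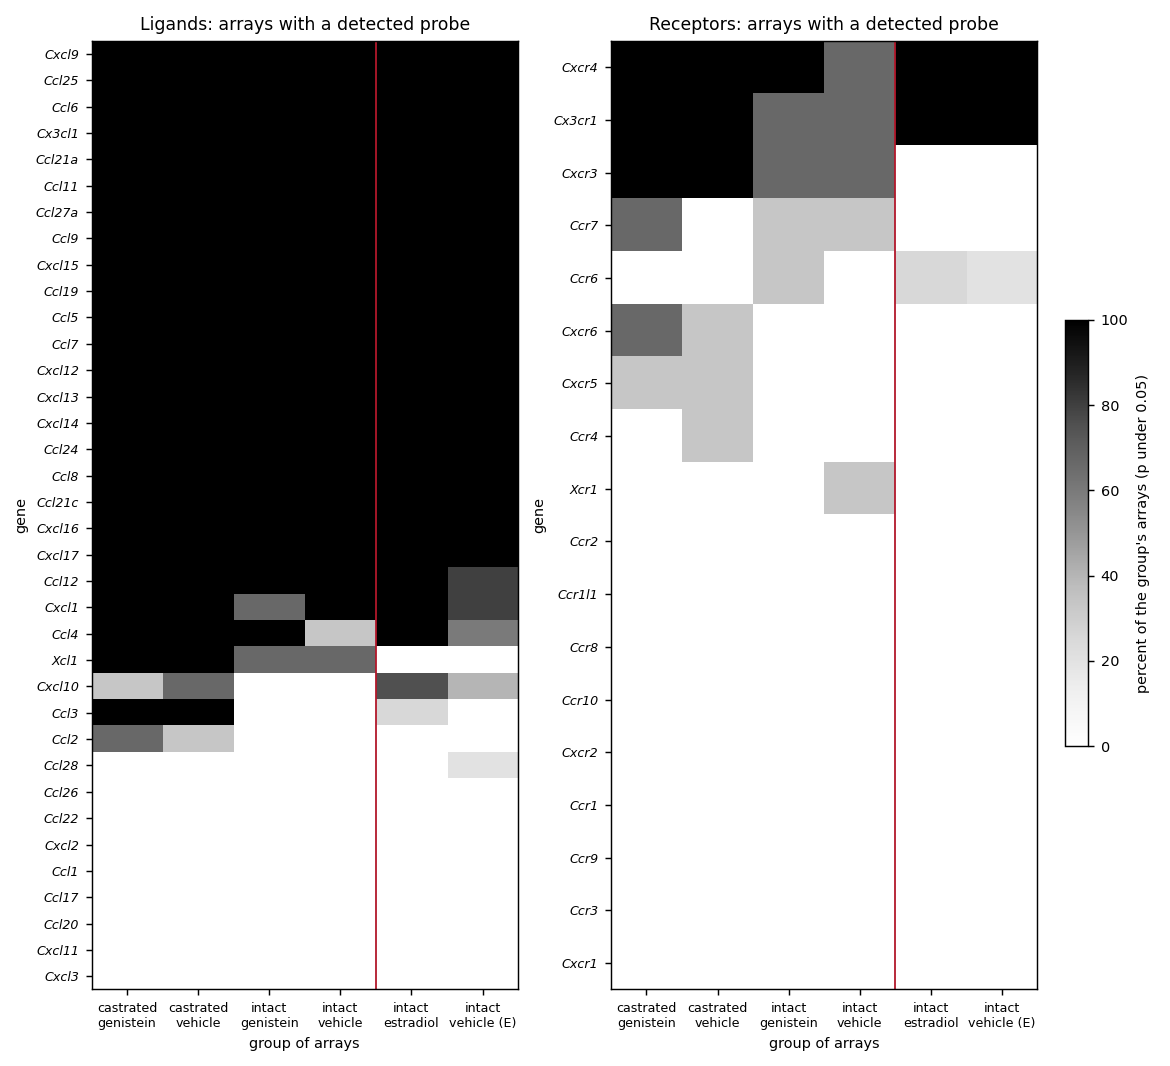
Percent of the arrays of each group (columns) on which the gene's most often detected probe had a detection p under 0.05, for 36 ligands (left) and 18 receptors (right); vehicle (E) is the vehicle group of the estradiol experiment. The upper 20 ligands are detected on all 21 arrays, whereas 9 receptors are detected on none. Ccl3, Ccl2, Cxcl10, Cxcr5 and Cxcr6 are detected in both castrated groups and in neither intact group of the genistein experiment.

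The first question was what castration did to the chemokine system. In vehicle-treated males 17 of the 32 genes tested passed, 14 of them higher and 3 lower in castrated males; over all 15406 genes tested 21.2% passed, 11.1% higher and 10.0% lower. An unadjusted p under 0.05 was found for 34.7% of all genes. With median scaling in place of quantile normalization 20 of the 32 passed, 18 higher and 2 lower, and the split over all genes was 2282 higher and 1052 lower, against 1713 and 1546 with quantile normalization. The median log2 change was 0.63 for the 32 and 0.04 for all genes. Among the 14 were the monocyte attractant Ccl8, the T cell attractants Ccl5 and Cxcl9, the lymphoid homing ligands Ccl19, Ccl21a and Ccl21c, the neutrophil attractants Cxcl1 and Cxcl15, and the receptors Cx3cr1 and Cxcr4. The eosinophil attractant Ccl11, the B cell attractant Cxcl13 and Ccl25 were the 3 lower genes. In genistein-treated males 11 of the 32 passed, 10 higher and 1 lower, against 22.1% of all genes (11.2% higher and 10.9% lower; 35.1% at an unadjusted p under 0.05), with a median of 0.43 for the 32 and 0.04 for all genes. The lists share 9 genes with the same direction, which is 81.8% of the genistein list and 52.9% of the vehicle list; over all genes the lists share 1997, 58.7% and 61.3% of them. Each contrast sets arrays of 1 chip against those of the other. Groups of arrays did not overlap for 14 of 32 genes in genistein-treated males (38.4% of all genes) and for 22 of 32 in vehicle-treated males (39.5% of all genes). Ccl2, Ccl3, Cxcl10 and Cxcr6 entered the test through castrated arrays alone, since no intact array of that experiment detected them. Without these 4, the counts are 10 of 28 in genistein-treated and 17 of 28 in vehicle-treated males. The shares over all genes were not recomputed without such genes, so these counts have no like share beside them. In bulk RNA, a change in the number of cells that express a gene and a change in RNA per cell cannot be told apart.

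**Figure D2:**
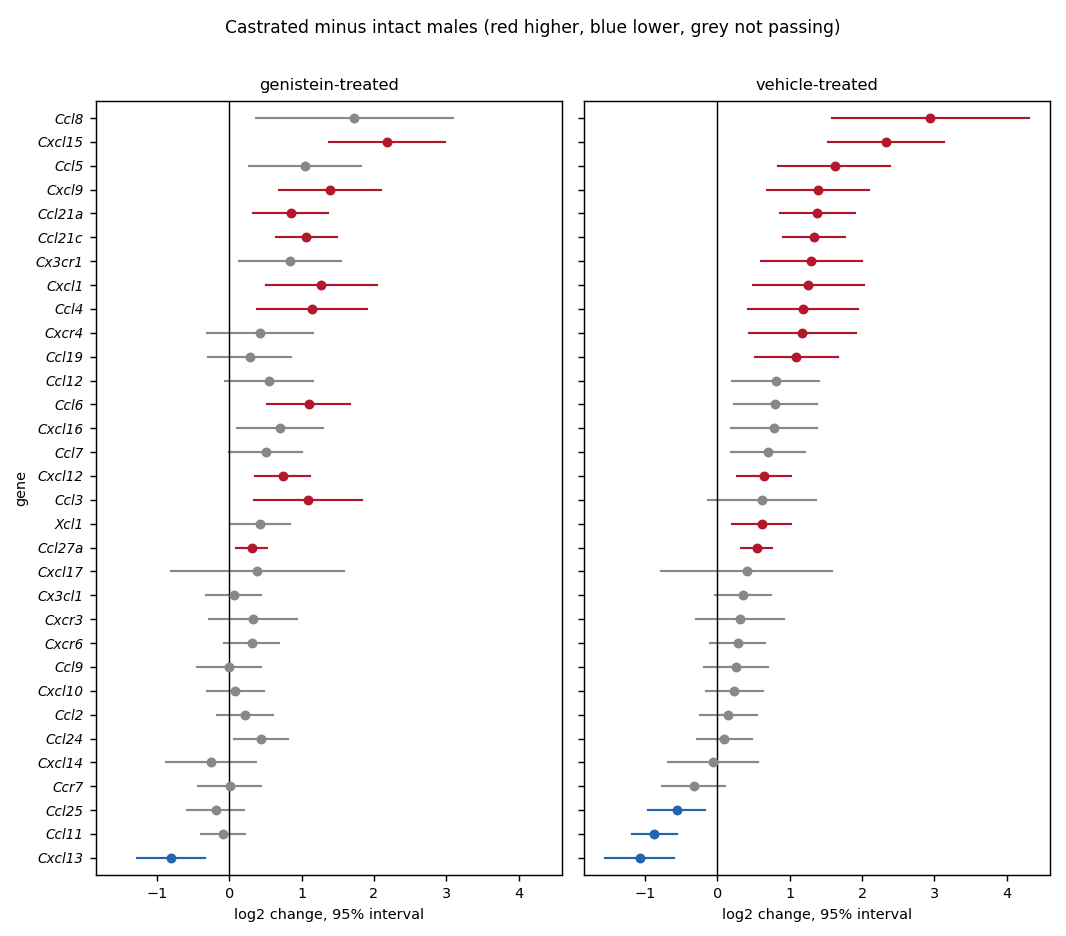
Log2 change, castrated minus intact, with its 95% confidence interval (horizontal axis) for the 32 chemokine genes tested (rows), in genistein-treated males (left) and vehicle-treated males (right); red and blue mark genes called higher and lower, grey those not passing, and the fitted value of Ccl3 is no bound. Points lie right of 0 for 27 genes in each panel, and Cxcl13 is the gene called lower in both.

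Among the CC ligands encoded together on chromosome 11, Ccl8, a monocyte chemoattractant protein, had the largest rise. Its log2 signals were 10.42, 8.96 and 8.82 on the castrated vehicle arrays, against 5.94, 6.61 and 6.81 on the intact vehicle arrays. Every castrated array lay above every intact one, and Ccl8 was 7.7-fold higher (log2 change 2.95, SE 0.625, adjusted p = 0.00652). On the genistein arrays it read 7.79, 10.17 and 8.85 in castrated males and 7.09, 6.29 and 8.26 in intact males. These groups overlapped, because castrated array 1 lay below intact array 3, and the change did not pass (log2 change 1.73, SE 0.625, adjusted p = 0.0687). The related monocyte attractants Ccl2, Ccl7 and Ccl12, which act through Ccr2, had log2 changes of 0.15, 0.70 and 0.81 in vehicle-treated males, with adjusted p = 0.588, 0.0528 and 0.0584. In genistein-treated males their changes were 0.21, 0.50 and 0.55 (adjusted p = 0.428, 0.148 and 0.18). By its brightest probe none of these 3 passed in either contrast, while the dimmer Ccl7 probe passed in genistein-treated males (0.71, adjusted p = 0.0397 over all probes). No Ccr2 probe was detected.

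Ccl11, or eotaxin, which draws eosinophils through Ccr3, lies in the same run of genes and was lower in castrated vehicle-treated males. It averaged 9.96 ± 0.25 on castrated vehicle arrays and 10.84 ± 0.07 on intact vehicle arrays (SD, n = 3 each), a fall of 0.87 on the log2 scale (SE 0.141, adjusted p = 0.00139). Its 2 probes both passed, with changes of -0.87 and -0.75. In genistein-treated males the group means were 10.09 ± 0.15 in castrated and 10.18 ± 0.12 in intact males, and the change was -0.09 (SE 0.141, adjusted p = 0.705), with 0.22 for its second probe. Ccl24, a further eotaxin, had changes of 0.44 in genistein-treated and 0.09 in vehicle-treated males and passed in neither (adjusted p = 0.0935 and 0.744). By the RefSeq gene order of GRCm38.p6, Ccl2, Ccl7, Ccl11, Ccl12, Ccl8 and Ccl1 follow each other with 0 other coding genes between them. In vehicle-treated males Ccl11 fell and Ccl8 rose, and Ccl7 and Ccl12, on either side of Ccl11, did not pass.

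A second run on the same chromosome holds Ccl5, Ccl9, Ccl6, Ccl3 and Ccl4. Ccl5, which attracts T cells and monocytes, read 8.29, 7.80 and 7.84 on castrated vehicle arrays, against 5.86, 6.57 and 6.64 on intact vehicle arrays. The groups did not overlap and Ccl5 was 3.07-fold higher (log2 change 1.62, SE 0.355, adjusted p = 0.00776). Its signals with genistein were 7.87, 7.77 and 7.55 in castrated and 6.38, 6.01 and 7.67 in intact males; intact array 3 lay among the castrated arrays and the change did not pass (log2 change 1.04, SE 0.355, adjusted p = 0.055). Ccl4, a macrophage inflammatory protein, was called in both contrasts. It read 5.99, 7.41 and 6.15 in castrated and 4.99, 5.44 and 5.69 in intact genistein-treated males, where castrated array 2 stood above the rest (log2 change 1.14, SE 0.347, adjusted p = 0.0347). That call ended without castrated array 2 (0.70, adjusted p = 0.1), intact array 1 (0.95, adjusted p = 0.111) or intact array 2 (1.18, adjusted p = 0.0768). In vehicle-treated males it averaged 6.43 ± 0.16 in castrated and 5.25 ± 0.49 in intact males (SD, n = 3 each; log2 change 1.18, SE 0.347, adjusted p = 0.0315), and 1 of the 3 intact arrays detected it. The call in vehicle-treated males ended without any 1 of castrated arrays 1, 2 and 3 or intact arrays 1 and 3, with changes of 1.02 to 1.24 and adjusted p = 0.066 to 0.1.

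Ccl3, the companion macrophage inflammatory protein, was detected on all 6 castrated arrays and on none of the 6 intact arrays of the genistein experiment. With genistein it read 5.41, 6.50 and 5.001 in castrated males, against 4.76, 4.38 and 4.49, all undetected, in intact males. It was at least 1.58-fold higher in castrated males, taking the lowest detected signal of each intact array as the bound (limma adjusted p = 0.0397). Ccl3 passed the detection filter through the castrated arrays, where it is high, so this p supports no statement about the family. Castrated array 2 was the highest, and the call ended without it (log2 change 0.66, adjusted p = 0.12) and without castrated array 1 or any 1 intact genistein array (1.01 to 1.21, adjusted p = 0.0566 to 0.113). In vehicle-treated males Ccl3 was at least 1.18-fold higher and did not pass (adjusted p = 0.23). Ccl6, a mouse myeloid ligand of Ccr1, read 6.62, 7.08 and 6.80 in castrated and 5.57, 5.21 and 6.43 in intact genistein-treated males. All 3 castrated arrays were higher, by 2.14-fold on average (log2 change 1.10, SE 0.264, adjusted p = 0.0119). In vehicle-treated males its groups did not overlap either, but the change just missed the threshold (log2 change 0.80, SE 0.264, adjusted p = 0.0504). Ccl9, a related ligand of Ccr1, had changes of -0.01 and 0.26 in genistein-treated and vehicle-treated males (adjusted p = 0.981 and 0.395).

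The ligands that guide lymphocytes and dendritic cells into lymphoid tissue were split. Ccl21a and Ccl21c, ligands of Ccr7, are near-identical gene copies, so their probes may share targets and are read together. Ccl21c read 11.92, 11.55 and 11.55 on castrated vehicle arrays, against 9.93, 10.49 and 10.60 on intact vehicle arrays, 2.52-fold higher (log2 change 1.34, SE 0.195, adjusted p = 0.000745). Ccl21a read 12.11, 11.60 and 11.51 on the same castrated arrays, against 9.94, 10.53 and 10.60 on the intact ones (log2 change 1.38, SE 0.239, adjusted p = 0.00208). Neither gene had overlapping groups. In genistein-treated males Ccl21c read 11.37, 11.81 and 11.74 in castrated and 10.68, 10.35 and 10.69 in intact males (log2 change 1.07, SE 0.195, adjusted p = 0.00294). Ccl21a read 11.34, 11.97 and 11.44 there in castrated males, against 10.82, 10.41 and 10.98 in intact males (log2 change 0.85, SE 0.239, adjusted p = 0.0252). The Ccl21a call in genistein-treated males ended without castrated array 2 (0.66, adjusted p = 0.0926) and without intact array 2 (0.69, adjusted p = 0.0996). Ccl19, the other Ccr7 ligand, averaged 7.33 ± 0.54 in castrated and 6.24 ± 0.46 in intact vehicle-treated males (log2 change 1.09, SE 0.263, adjusted p = 0.0127). In genistein-treated males Ccl19 had a change of 0.28 (adjusted p = 0.485). Ccr7 itself had changes of 0.01 and -0.33 in genistein-treated and vehicle-treated males, at the edge of detection (adjusted p = 0.985 and 0.27).

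Cxcl13, which draws B cells through Cxcr5, was lower after castration in both contrasts. It averaged 9.29 ± 0.25 in castrated and 10.10 ± 0.46 in intact genistein-treated males (log2 change -0.81, SE 0.216, adjusted p = 0.0199). In vehicle-treated males the means were 8.93 ± 0.18 and 10.00 ± 0.19 (log2 change -1.07, SE 0.216, adjusted p = 0.00483), with no overlap of the groups in either contrast (SD, n = 3 each). The call in genistein-treated males ended without any 1 of castrated arrays 1 and 2 or intact arrays 1 and 3, with changes of -0.65 to -0.79 and adjusted p = 0.0528 to 0.0792. The most often detected probe of its receptor Cxcr5 was detected on 2 of the 21 arrays, both castrated. Another Cxcr5 probe was detected on 1 intact estradiol array.

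Interferon-induced ligands of Cxcr3 came next. Cxcl9 read 7.27, 6.92 and 7.66 in castrated and 5.29, 5.57 and 6.80 in intact genistein-treated males. All castrated arrays lay above all intact ones, although intact array 3 came close, and Cxcl9 was 2.63-fold higher (log2 change 1.40, SE 0.324, adjusted p = 0.00997). In vehicle-treated males it read 7.43, 6.95 and 7.40 in castrated and 5.91, 5.79 and 5.92 in intact males, 2.61-fold higher (log2 change 1.39, SE 0.324, adjusted p = 0.0107). Cxcl10 was detected on 3 castrated and 0 intact arrays of that experiment, and had changes of 0.08 in genistein-treated and 0.23 in vehicle-treated males (adjusted p = 0.79 and 0.388). Cxcr3, the receptor of activated T cells for these ligands, had changes of 0.32 and 0.32 and did not pass (adjusted p = 0.445 and 0.455). Xcl1, a C-family ligand made by T and NK cells, averaged 5.56 ± 0.12 in castrated and 4.95 ± 0.32 in intact vehicle-treated males (SD, n = 3 each; log2 change 0.61, SE 0.189, adjusted p = 0.0389). That call ended without any 1 of castrated arrays 1, 2 and 3 or intact arrays 1 and 3, with changes of 0.43 to 0.67 and adjusted p = 0.0678 to 0.132. In genistein-treated males Xcl1 had a change of 0.43 (adjusted p = 0.127).

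Among the CXC ligands, Cxcl15, known in mouse as an epithelial neutrophil attractant, had one of the strongest rises. It read 9.27, 9.38 and 9.58 in castrated and 8.05, 6.55 and 7.11 in intact genistein-treated males, 4.52-fold higher (log2 change 2.18, SE 0.366, adjusted p = 0.00183). In vehicle-treated males it read 9.40, 9.27 and 9.22 in castrated and 6.22, 7.06 and 7.64 in intact males, 5.02-fold higher (log2 change 2.33, SE 0.366, adjusted p = 0.00117). The 6 castrated arrays lay between 9.22 and 9.58, while the 6 intact arrays spread from 6.22 to 8.05. Cxcl1, which attracts neutrophils through Cxcr2, read 6.55, 7.02 and 6.25 in castrated and 6.27, 4.74 and 4.99 in intact genistein-treated males, where intact array 2 did not detect it and intact array 1 overlapped the castrated arrays (log2 change 1.27, SE 0.351, adjusted p = 0.0232). In vehicle-treated males it read 6.27, 6.73 and 7.05 in castrated and 5.20, 5.58 and 5.50 in intact males, with no overlap (log2 change 1.25, SE 0.351, adjusted p = 0.0256). Leaving out castrated array 1 or 2 or intact array 2 or 3 ended the call in genistein-treated males (0.97 to 1.30, adjusted p = 0.0576 to 0.0939), and leaving out castrated array 2 or 3 or intact array 1 or 3 ended it in vehicle-treated males (1.07 to 1.29, adjusted p = 0.0588 to 0.0923).

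Cxcl3, Cxcl15, Cxcl1 and Cxcl2 follow each other on chromosome 5, with 0 other coding genes between them in the RefSeq order. Cxcl2 and Cxcl3, which act through Cxcr2 as Cxcl1 does, were detected on no array, and neither was Cxcr2. The 250 bases before the gene start are shown for the 2 genes of this run that rose and for Cxcl2 as the undetected neighbour (RefSeq, GRCm38.p6, plus strand, chr5:90890995-90891244, chr5:90794284-90794533 and chr5:90903649-90903898). Capitals mark matches to the NF-kB consensus (Cxcl1 and Cxcl2, 2 overlapping matches, 1 per strand) or to TATAAA (Cxcl15).
Cxcl1: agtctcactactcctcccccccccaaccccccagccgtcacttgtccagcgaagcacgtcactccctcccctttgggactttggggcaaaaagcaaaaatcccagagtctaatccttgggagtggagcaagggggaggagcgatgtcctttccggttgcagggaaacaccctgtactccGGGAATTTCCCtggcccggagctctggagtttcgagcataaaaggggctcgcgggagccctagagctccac
Cxcl15: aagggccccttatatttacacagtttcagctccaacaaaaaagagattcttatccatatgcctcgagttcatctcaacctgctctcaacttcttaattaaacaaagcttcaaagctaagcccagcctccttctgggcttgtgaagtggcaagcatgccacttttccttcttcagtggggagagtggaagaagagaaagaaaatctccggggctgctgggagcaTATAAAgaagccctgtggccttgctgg
Cxcl2: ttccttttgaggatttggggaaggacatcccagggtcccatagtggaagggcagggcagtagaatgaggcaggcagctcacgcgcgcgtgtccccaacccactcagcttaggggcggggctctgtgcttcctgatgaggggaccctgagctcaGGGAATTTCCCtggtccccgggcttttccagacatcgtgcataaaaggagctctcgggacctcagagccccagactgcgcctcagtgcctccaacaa
The marked run of letters is the same in Cxcl1, which rose, and in Cxcl2, which was undetected. Of the 54 genes 40 had a promoter sequence in the RefSeq table, and 9 of these (22.5%) held the NF-kB consensus on either strand, as did 7.03% of all 27025 promoters. TATAAA on either strand was found in 11 of 40 (27.5%) and in 13.0% of all promoters. Of the 13 promoters whose genes were called higher after castration in either contrast, 1 (7.69%) held the NF-kB consensus, that of Cxcl1, and 4 (30.8%) held TATAAA. The letters AGAACA, a half-site shared by androgen and other steroid receptor elements, were found in 17.5% of the 40 and in 16.2% of all promoters, on either strand. Also searched on both strands were TTCNNNGAA, a STAT-type element (10.0% of the 40 and 7.15% of all), and the interferon-response type element (7.5% and 3.05%). A match describes the letters in this window and shows no binding.

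Cxcl12, a stromal ligand that retains and recruits cells through Cxcr4, was higher in castrated males in both contrasts. It averaged 11.67 ± 0.07 in castrated and 10.93 ± 0.25 in intact genistein-treated males (log2 change 0.73, SE 0.172, adjusted p = 0.0103). In vehicle-treated males the means were 11.60 ± 0.15 and 10.95 ± 0.32 (log2 change 0.65, SE 0.172, adjusted p = 0.0201; SD, n = 3 each). The 3 Cxcl12 probes tested all passed in both contrasts, with changes of 0.73 to 1.12 in genistein-treated and 0.65 to 1.15 in vehicle-treated males. For the brightest probe the call in vehicle-treated males ended without castrated array 1 or 3 or intact array 1 or 3 (0.49 to 0.64, adjusted p = 0.0569 to 0.0786). Cxcr4 averaged 6.67 ± 0.17 in castrated and 5.50 ± 0.93 in intact vehicle-treated males (log2 change 1.17, SE 0.338, adjusted p = 0.0291), where intact array 1 did not detect it. Without that array the change was 0.64 (adjusted p = 0.0185), and without any 1 castrated vehicle array the call ended (1.12 to 1.27, adjusted p = 0.0503 to 0.0891). In genistein-treated males Cxcr4 had a change of 0.43 (adjusted p = 0.399).

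Cx3cr1, the receptor of monocytes and resident macrophages for the membrane-bound ligand Cx3cl1, read 6.88, 6.15 and 6.30 in castrated vehicle-treated males, against 5.51, 4.83 and 5.08 in intact vehicle-treated males, where array 2 did not detect it. It was 2.46-fold higher with no overlap (log2 change 1.30, SE 0.322, adjusted p = 0.0144), and the call ended without castrated array 1 (1.08, adjusted p = 0.0656). In genistein-treated males its change was 0.83 (adjusted p = 0.0855). Cx3cl1 did not pass in either contrast (0.06 with genistein and 0.35 with vehicle). Cxcl16, another membrane-bound ligand, had changes of 0.70 and 0.78 (adjusted p = 0.0907 and 0.0633). Its receptor Cxcr6, found on T cells, had changes of 0.31 and 0.28 and was detected on 3 castrated and 0 intact arrays of that experiment (adjusted p = 0.227 and 0.28).

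Ccl27a, an epithelial ligand of Ccr10 in skin, averaged 9.67 ± 0.06 in castrated and 9.36 ± 0.04 in intact genistein-treated males (log2 change 0.31, SE 0.0979, adjusted p = 0.0409). In vehicle-treated males the means were 9.74 ± 0.07 and 9.20 ± 0.06 (log2 change 0.54, SE 0.0979, adjusted p = 0.00261; SD, n = 3 each), with no overlap in either contrast. In genistein-treated males that call ended without any 1 of castrated arrays 1, 2 and 3 or intact arrays 1 and 2 (0.28 to 0.33, adjusted p = 0.076 to 0.117). Ccl27a has a near-identical copy in mouse, so its probes may measure both. Ccl25, a ligand of Ccr9 known from thymus and gut, averaged 6.08 ± 0.24 in castrated and 6.64 ± 0.33 in intact vehicle-treated males (log2 change -0.56, SE 0.181, adjusted p = 0.0455). The groups overlapped, its 3 probes ranged from -0.56 to 0.10, and the call ended without castrated array 1 or 2 or intact array 1 or 3 (-0.40 to -0.55, adjusted p = 0.109 to 0.155). In genistein-treated males Ccl25 had a change of -0.19 (adjusted p = 0.495); its 3 probes ranged from -0.71 to -0.06, and the lowest passed (adjusted p = 0.0145 over all probes). Cxcl14 and Cxcl17, of skin and mucosal epithelia, did not pass: Cxcl14 had changes of -0.25 and -0.06, and Cxcl17 of 0.39 and 0.40, in genistein-treated and vehicle-treated males. The Cxcl17 intervals reached from -0.80 to 1.58 and from -0.79 to 1.59.

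**Figure D3:**
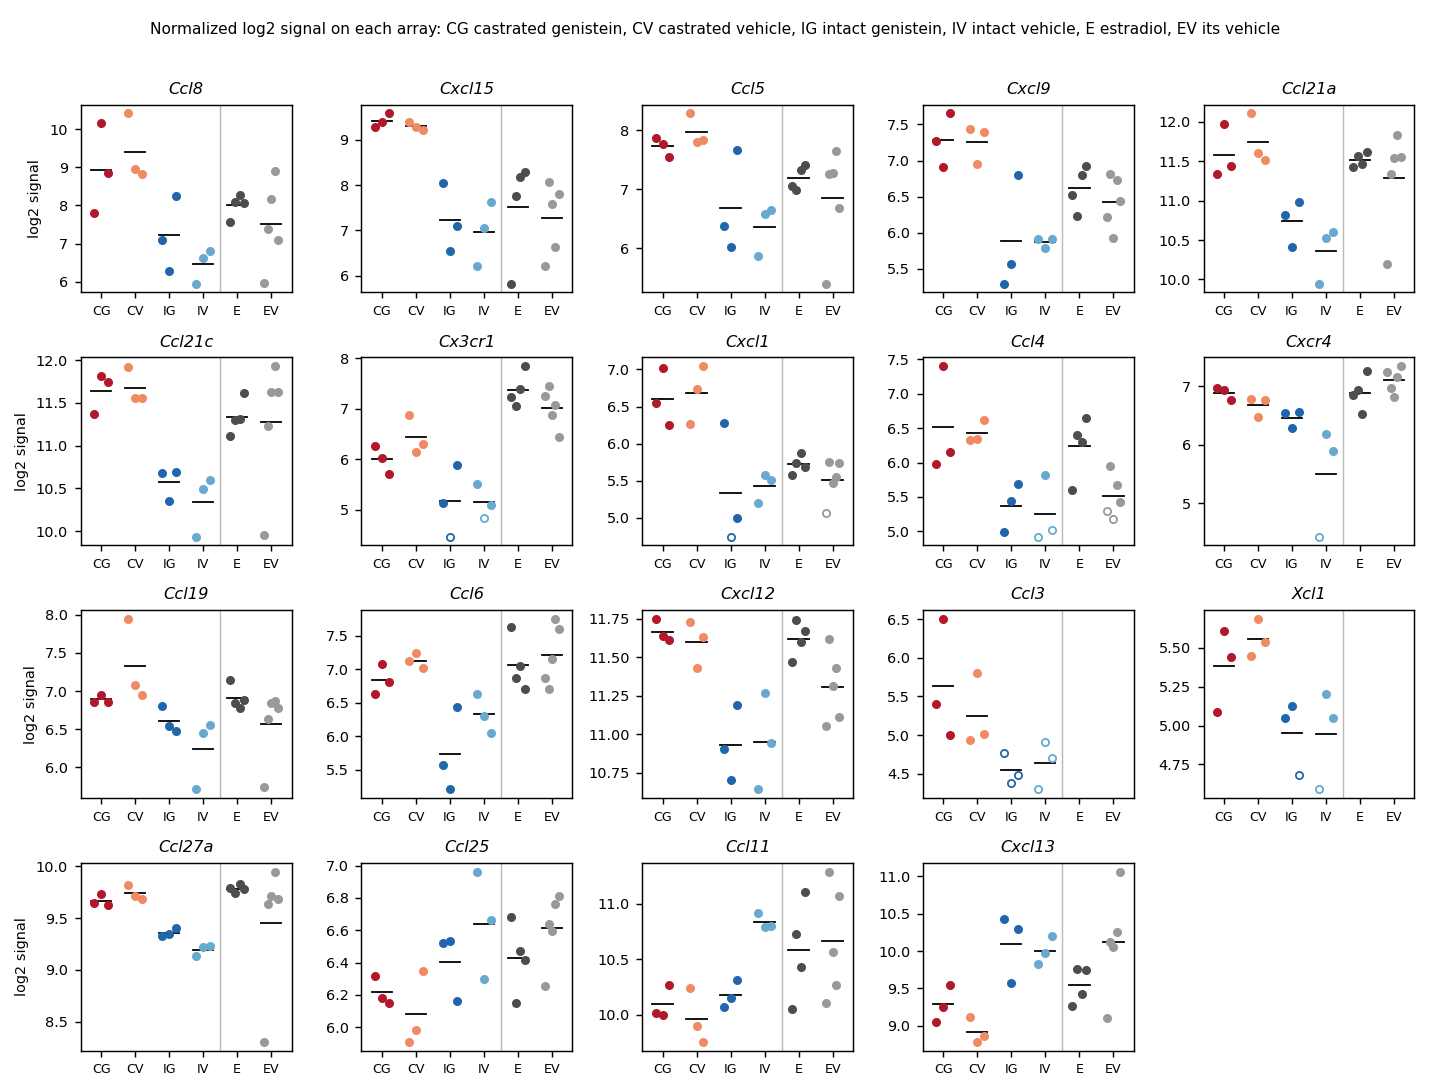
Normalized log2 signal (vertical axis, own scale per gene) on each array for the 19 genes called after castration in either contrast, by group, with replicates left to right; filled points were detected, open points were not, and bars are group means. The estradiol experiment (E, EV) was normalized separately from the genistein experiment. Ccl11 and Cxcl13 lie lower, and Cxcl15 and Ccl21c higher, on castrated than on intact vehicle arrays without overlap, and vehicle array 1 of the estradiol experiment is the lowest point of its group for Ccl27a and Ccl19.

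An alternative chosen after seeing the data left out castrated genistein arrays 1 and 3. It leaves 1 array in the group and assumes that it varies like the other groups, so changes are given here without calls. Castration in genistein-treated males then had log2 changes of 2.04 for Ccl4, 1.24 for Ccl21c and 2.96 for Ccl8. The fitted value of Ccl3 was 1.96, which is no bound, since no intact array of that experiment detected it. The other 8 genes called with all arrays had the same sign there. They were Cxcl15 (2.15), Cxcl1 (1.68), Ccl6 (1.34), Ccl21a (1.24), Cxcl9 (1.03), Cxcl12 (0.71), Ccl27a (0.37) and Cxcl13 (-0.84).

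Of the 11 genes called in genistein-treated males, 5 passed in every fit without 1 array and under every other planned processing, namely Ccl6, Ccl21c, Cxcl9, Cxcl12 and Cxcl15. Of the 17 called in vehicle-treated males 10 did so, namely Ccl5, Ccl8, Ccl11, Ccl19, Ccl21a, Ccl21c, Ccl27a, Cxcl9, Cxcl13 and Cxcl15. Cxcl12 also passed under every other processing in vehicle-treated males. Ccl25 passed under the fewest settings there, with adjusted p = 0.0546 to 0.18 under 7 other settings. With the deposited processed values Cx3cr1 (1.95, adjusted p = 0.259), Cxcr4 (2.67, adjusted p = 0.16), Xcl1 (1.40, adjusted p = 0.106) and Cxcl1 (1.68, adjusted p = 0.0835) no longer passed in vehicle-treated males, while their changes were larger. Those values were given a floor of 1 and the main values an offset of 16, so the sizes of changes near background are not alike. In genistein-treated males median scaling ended the calls of Ccl21a (0.73, adjusted p = 0.053) and Ccl27a (0.22, adjusted p = 0.245).

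Other genes of chemokine handling were read from lists of related genes. Among 5 tested atypical receptors and decoys, which bind chemokines without directing migration, 2 were higher in castrated genistein-treated males, Ackr2 (log2 change 1.04) and Ackr1 (0.76), and 1 in vehicle-treated males, Ackr2 (1.00). Of 5 chemokine-like genes outside these prefixes, Rarres2, or chemerin, was higher (0.72 with genistein, 0.62 with vehicle), Cklf was lower (-0.91 and -0.93), and the platelet chemokine Pf4 was higher with vehicle (0.82). Of 27 receptor signalling genes 3 were higher and 2 lower with genistein, and 7 higher and 1 lower with vehicle, which is 18.5% and 29.6% of them, against 22.1% and 21.2% of all genes. The 4 largest with vehicle were the leukocyte cytoskeleton genes Was (1.16) and Rac2 (1.16), and the G-protein regulators Rgs2 (-0.92) and Rgs16 (0.82); with genistein they were Rgs16 (0.88), Rgs2 (-0.87) and the Rac activators Vav1 (0.69) and Prex1 (0.58). Of 23 cytokines and transcription factors that induce chemokines 4 were higher and 1 lower with genistein, and 7 higher and 1 lower with vehicle, 21.7% and 34.8% of them, so the genistein share is close to that of all genes. The 4 largest with vehicle were the lymphotoxin subunit Ltb (1.41), the interferon regulatory factor Irf1 (0.92), the endotoxin receptor Tlr4 (0.87) and the NF-kB subunit Relb (0.82), and with genistein Ltb (1.14), Tlr4 (0.58), Irf1 (0.53) and the lymphotoxin receptor Ltbr (-0.51). Of 13 proteases and carriers that act on chemokines, Mmp14 (1.25 with genistein, 1.30 with vehicle) and Mmp2 (1.00 and 1.02) were higher, as was Mmp9 with vehicle (0.72). That is 15.4% and 23.1% of the list with genistein and vehicle, below and close to the shares of all genes. For the atypical receptors and decoys the shares were 40% and 20%, and for the chemokine-like genes 40% and 60%, each of only 5 genes.

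Markers of leukocytes moved with the same contrasts. Over all genes tested, 11.2% were higher and 10.9% lower in castrated genistein-treated males, and 11.1% and 10.0% in castrated vehicle-treated males. Of 10 tested macrophage markers 7 were higher in castrated genistein-treated males and 10 in castrated vehicle-treated males, led in both by Tyrobp, Aif1, Lyz2 and Cd14. Their summed linear signal ran from 9172 to 11770 in castrated genistein and 10020 to 11490 in castrated vehicle arrays, against 4119 to 7391 in intact genistein and 4424 to 5382 in intact vehicle arrays; Fcer1g was detected on none. Of 5 T cell markers 3 rose and 1 fell with genistein, and 4 rose and 1 fell with vehicle; Cd3e rose by 1.35 and 1.48, whereas Cd8b1 fell by 0.66 and 0.43. Their sum was 2091 to 2512 and 2401 to 2558 in castrated genistein and vehicle arrays, against 2897 to 3684 and 2837 to 3359 in the intact groups, with Cd4, Cd5 and Cd8a undetected. Since the other 4 rose with vehicle, the lower sum there comes from Cd8b1 and does not describe the list. Mast cell proteases Mcpt4, Cma1, Tpsb2 and Cpa3 rose in both contrasts, 4 of 5 markers tested, while the eosinophil markers Epx, Prg2 and Siglecf were undetected. Their sum was 1330 to 1604 and 1126 to 1403 in castrated genistein and vehicle arrays, against 378.3 to 810.7 and 515.6 to 591.3 in intact ones. Neutrophil markers rose for 1 of 3 in both contrasts (S100a8, by 1.32 with genistein and 1.50 with vehicle), with Camp, Mpo and Ngp undetected and sums of 179.7 to 421.1 and 130.9 to 322.5 in castrated, against 95.24 to 160.4 and 73.39 to 112.3 in intact arrays. The part of these cells in the chemokine changes was not tested.

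The remaining lists were smaller or mixed. Over all genes, 22.1% passed with genistein (11.2% higher and 10.9% lower) and 21.2% with vehicle (11.1% and 10.0%). Several lists lay near these shares, such as blood endothelial markers, with 12.5% and 25% called, so the counts below are a description. NK markers rose for 2 of 3 with genistein and 1 of 3 with vehicle, dendritic cell markers for 0 and 2 of 4, B cell markers for 0 and 1 of 2, blood endothelial markers for 1 and 2 of 8, lymphatic endothelial markers for 1 and 0 of 4, and fibroblast markers for 2 and 4 of 8. Smooth muscle markers fell for 6 of 7 with genistein and 3 of 7 with vehicle. Luminal epithelial markers fell for 1 and 2 of 7 and rose for 0 and 1, basal markers changed for 0 of 5, and urothelial markers rose for 2 and fell for 1 of 5 in both contrasts. Seminal vesicle transcripts fell for 4 of 6 with genistein and 0 of 6 with vehicle, and red blood cell markers passed for 0 of 2.

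The second question was whether genistein changed these genes. In castrated males 0 of the 32 genes passed in limma, 0 had an unadjusted p under 0.05, and over all genes 0% passed and 9.47% had an unadjusted p under 0.05. Changes ran from -0.46 for Ccl8 to 0.38 for Ccl3, and only Ccl24 had groups that did not overlap, 1 of 32 against 17.5% of all genes. For the genes that stood out after castration the 95% intervals of the genistein change were -0.69 to 0.91 for Cxcl15, -0.69 to 0.73 for Cxcl9, -0.46 to 0.39 for Ccl21c and -1.83 to 0.90 for Ccl8. Without castrated genistein arrays 1 and 3 the count of chemokine genes was also 0, and the changes ran from -0.42 to 1.25. Without both arrays 10 of the 32 changes turned sign, that of Ccl8 to 0.77, and Ccl3 and Ccl4 had changes of 1.25 and 0.97 (SE 0.345 and 0.356, adjusted p = 1). The count was 0 without array 2 as well, a fit in which 144 of all genes passed.

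In intact males 0 of 32 passed in limma, against 0.00649% of all genes, and 3 of 32 had an unadjusted p under 0.05, against 7.41% of all genes. Ccl11 read 10.07, 10.15 and 10.31 in intact genistein-treated males, against 10.92, 10.79 and 10.80 in intact vehicle-treated males. All genistein arrays lay below all vehicle arrays, and the log2 change was -0.66 (SE 0.141, adjusted p = 0.538; 0.34 to 0.927 over the alternatives). Both Ccl11 probes had this sign, -0.66 and -0.63. Castrated genistein arrays read 10.02, 9.997 and 10.27 and castrated vehicle arrays 10.24, 9.90 and 9.75, so the 9 arrays of the other 3 groups lay between 9.75 and 10.31, below the intact vehicle group. The difference between the genistein effects, castrated minus intact, was 0.78 for Ccl11 (SE 0.2, adjusted p = 0.5). It had the lowest p of the 32 genes in that test, in which 0 passed, 1 had an unadjusted p under 0.05, and 0% of all genes passed (7.28% unadjusted). These contrasts share the intact vehicle arrays with the castration contrast in which Ccl11 fell.

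Cxcr4 read 6.55, 6.28 and 6.56 in intact genistein-treated males, against 4.44, 6.18 and 5.89 in intact vehicle-treated males, where array 1 did not detect it. The change was 0.96 (SE 0.338, adjusted p = 0.639), and 0.43 without intact vehicle array 1 (adjusted p = 0.709). Ccl6 had a change of -0.59 (adjusted p = 0.667), which was -0.33 without intact genistein array 2 and -0.94 without array 3. Groups did not overlap for 3 of 32 genes, Ccl11, Cxcr4 and Ccl27a, against 10.7% of all genes. Apart from Ccl6, Ccl11 and Cxcr4, the changes lay between -0.24 for Ccl25 and 0.76 for Ccl8, and the interval for Ccl8 was -0.61 to 2.12.

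**Figure D4:**
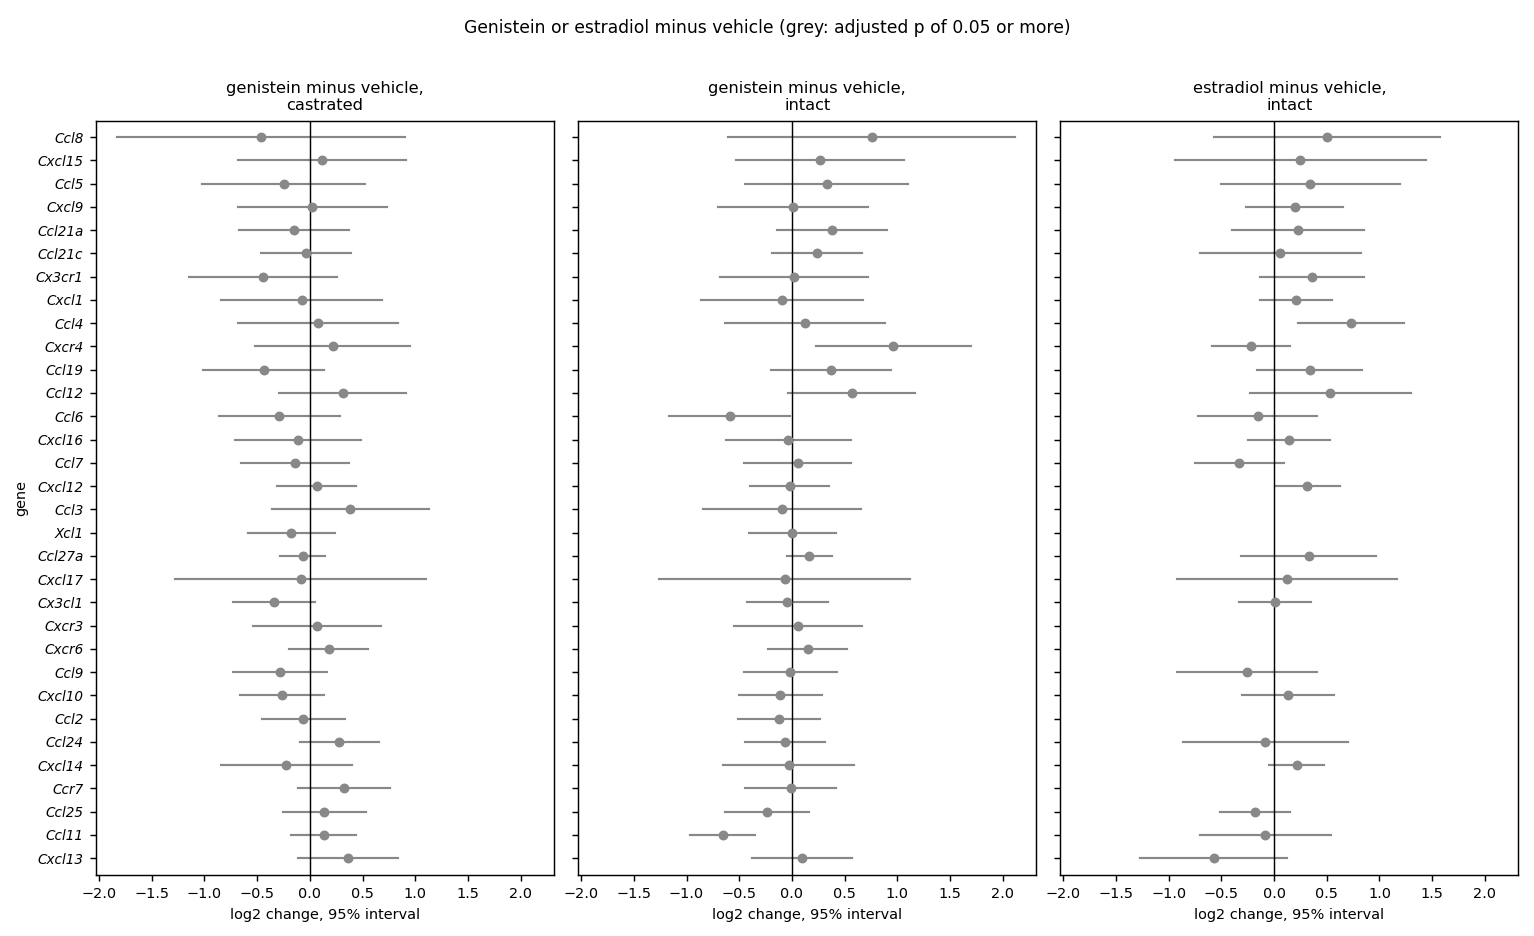
Log2 change with its 95% confidence interval (horizontal axis) for the chemokine genes (rows, in the order of the castration plot): genistein minus vehicle in castrated males (left) and in intact males (middle), and estradiol minus vehicle in intact males (right), where 26 of the 32 were tested. All points are grey, since none passed the adjusted threshold, and the intervals that do not cross 0 are those of Ccl6, Ccl11 and Cxcr4 in intact genistein-treated males and of Ccl4 and Cxcl12 after estradiol.

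The third question was what estradiol did in intact males. Of the 26 genes tested 0 passed in limma and 2 had an unadjusted p under 0.05, against 0% and 6.92% of all 15088 genes. Ccl4 read 5.60, 6.40, 6.30 and 6.66 on the estradiol arrays, against 5.29, 5.96, 5.19, 5.67 and 5.43 on the vehicle arrays, of which arrays 1 and 3 did not detect it. Estradiol array 1 lay within the vehicle range, the other 3 lay above it, and the change was 0.73 (SE 0.227, adjusted p = 0.656). Cxcl12 read 11.47, 11.74, 11.60 and 11.67, against 11.05, 11.62, 11.31, 11.43 and 11.11, with overlap (log2 change 0.31, SE 0.139, adjusted p = 0.713), and its other 2 probes had changes of -0.03 and 0.12. Without vehicle array 1 the changes were 0.68 for Ccl4 (adjusted p = 0.349) and 0.25 for Cxcl12 (adjusted p = 0.455). Within the chip that holds all 4 estradiol and 2 vehicle arrays they were 0.61 and 0.28 (adjusted p = 0.654 and 0.677). Those are vehicle arrays 1 and 2, so the array that stands apart is part of the reference there. The other chips hold vehicle arrays only, so the fit with chip as a block had to give the same changes (adjusted p = 0.595 and 0.629). The count of genes passed was 0 in each of these fits. The median change of the 26 genes was 0.17, -0.02 without vehicle array 1, and 0.30 within the chip that holds the estradiol arrays. Every gene had overlapping groups, so 0 of 26 were separated, against 2.82% of all genes.

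Intervals after estradiol differed in width between genes. Cxcl15 read 5.82, 7.76, 8.18 and 8.29 on estradiol arrays, against 6.22, 8.08, 7.58, 6.64 and 7.81 on vehicle arrays (log2 change 0.25, 95% interval -0.94 to 1.44). Ccl8 had a change of 0.50 (-0.57 to 1.57), Ccl21c of 0.06 (-0.70 to 0.82) and Cxcl9 of 0.20 (-0.27 to 0.66). Cxcl13 had the lowest change, -0.57 (SE 0.316, adjusted p = 0.776). Estradiol arrays read 9.26, 9.75, 9.42 and 9.74 and vehicle arrays 9.10, 10.12, 10.05, 10.26 and 11.06, where vehicle array 1 was the lowest and the other 4 lay above all estradiol arrays. The genistein and estradiol responses of intact males, each against its own vehicle, were compared over all 21 arrays normalized together. Of the 33 genes tested there 0 passed in limma and 1 had an unadjusted p under 0.05, Cxcr4 (genistein response minus estradiol response 1.24, SE 0.412, adjusted p = 0.595), against 0% and 7.10% of all 16538 genes.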

How the data were processed

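Illumina bead arrays measured prostate RNA on 21 arrays in 2 experiments. The deposited intensity values are average bead signals on a linear scale, with no background subtraction or normalization between arrays as the values show, and the deposited detection p-value stands beside each, per the file headers. BeadStudio (no version) is named in the submitters' processing notes. How the authors' processed intensity values, used as an alternative, were made is not stated per the labels. The deposited intensities were corrected by normexp with detection p-values (neqc, offset 16), quantile normalized within an experiment and put on the log2 scale in limma 3.58.1 (R 4.3.3). Probes detected (p under 0.05) on at least 3 arrays were kept, and the brightest kept probe stood for a gene: 15406, 15088 and 16538 genes in the genistein, estradiol and joint fits (residual degrees of freedom 8, 7 and 15). Symbols came from the platform annotation, where 34872 probes have 1 symbol, 18 several and 10369 none. Fits used all groups of an experiment (lmFit, eBayes), with Benjamini-Hochberg adjustment over all genes and a threshold of 0.05. The limma steps were tested on simulated data.

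Named genes are the members called in any contrast, the members of listed ligand and receptor pairs, and at most 4 called genes per other list and contrast. Members and lists were chosen with earlier results of these data known. Alternatives were median scaling, no background correction, no or a strict filter, every probe or a gene's mean probe, the authors' processed values, the replicate block, only the groups compared, chip in the estradiol experiment, and leaving out arrays. Promoter sequences are from RefSeq (GRCm38.p6), matched by symbol. The number of arrays limits the precision. Same-numbered arrays did not deviate together in every pair (correlations of -0.277 to 0.0924 in the genistein experiment and 0.0306 to 0.343 in the estradiol experiment), so the numbers were not taken as pairs.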

Additional observations from a re-analysis of the deposited data

Results flagged for a closer look

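Of 52 tests of a single group's arrays in the estradiol experiment, 4 found an array apart by Dixon's criterion, and chance gives about 1 in 20. Cxcl14, an epithelial ligand, was lowest on estradiol array 4, at 10.33, while the other estradiol arrays read 10.63 to 10.67. Vehicle array 1 was the lowest of its group for the other 3. Cxcl16 read 8.10 there and 8.68 to 8.82 on the other vehicle arrays, Ccl27a read 8.30 against 9.64 to 9.95, and Ccl19 read 5.75 against 6.63 to 6.87. That array stands apart over all genes too, and was the lowest of its group for 18 of the 26 chemokine genes.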

How the results depend on the processing

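The count of chemokine genes called after castration in genistein-treated males was 11, and 5 to 13 when 1 array was left out, 5 without castrated array 2 and 6 without intact array 2. It was 6 with only the 2 groups compared in the fit, and 4 without castrated genistein arrays 1 and 3, a setting chosen after seeing the data. In vehicle-treated males the count was 17, and 11 to 19 when 1 array was left out, 11 without castrated array 1, where 2037 of all genes passed against 3259 with all arrays. The other settings gave 9 to 12 in genistein-treated and 12 to 20 in vehicle-treated males. Fewer samples or more genes tested are part of several of these settings, and the cause of the remaining differences was not tested. In the genistein, interaction, estradiol and genistein-minus-estradiol contrasts 0 chemokine genes passed under every alternative run. Followed through the alternatives were 35 single-gene results. They were the 28 calls after castration and, in the other contrasts, only results for Ccl4, Ccl6, Ccl11, Cx3cl1, Cxcl12 and Cxcr4. Of their values 465 kept their direction and side of the threshold, 88 kept the direction and lost the call, and 0 reversed. Other changes, none of them called, did turn sign without castrated genistein arrays 1 and 3: 10 of 32 for genistein in castrated males, among them Ccl8 (0.77 against -0.46), 2 of 32 for castration in genistein-treated males and 9 of 32 for the difference between the genistein effects.

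With the replicate number as a block, 10 genes passed after castration in genistein-treated males and 16 in vehicle-treated males. In the other contrasts of single experiments 0 passed. Whether the numbers pair the samples is not known, and they were not taken as pairs. Median scaling put the median change of all genes at 0.14 for castration in vehicle-treated males, 0.11 for genistein in intact males, -0.16 for the difference between the genistein effects and 0.16 for estradiol, against 0.04, 0.003, -0.01 and 0.01 with quantile normalization. Genes near background, such as Ccl2, Ccl3, Cxcl10 and most receptors, have changes that the array's floor compresses.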

Other observations

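Arrays of a group differed in how often they were the highest or lowest for the 32 chemokine genes of the genistein experiment. Castrated genistein array 2 was the highest of its group for 16 and the lowest for 2, while arrays 1 and 3 were each the lowest for 15. Castrated vehicle array 1 was the highest for 20 and the lowest for 10. Intact genistein array 3 was the highest for 20 and the lowest for 5, and array 2 the highest for 4 and the lowest for 19. Intact vehicle array 1 was the highest for 8 and the lowest for 20. The genes on an array share 1 RNA sample and 1 normalization, so these counts are a description.

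Copies of a chemokine gene and probes of 1 gene did not always give 1 value. The 2 Ccl21c probes rose by 1.14 and 1.34 after castration in vehicle-treated males, and the 2 Ccl27a probes had changes of 0.32 and 0.54, of which the second passed. In genistein-treated males the 2 Ccl11 probes had changes of -0.09 and 0.22 after castration.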
